A study of Rattus norvegicus with 6 samples.

Results

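Astrocyte nuclei of the nucleus accumbens shell, a ventral striatal region tied to reward, were described in 6 libraries of single-nucleus RNA-seq from adult Long-Evans rats. The libraries were 3 female and 3 male pools, each of tissue from 4 animals of 1 sex that had been weaned on postnatal day 22 and pair housed to an age of 90 to 100 days, and the labels give no treatment or altered genotype in either sex. Nuclei were kept with at least 500 UMIs (unique molecular identifiers, each standing for a counted RNA molecule), at least 300 genes and under 5% mitochondrial UMIs. A kept nucleus was then chosen by the RNA it held: at least 3 of the 6 astrocyte genes Slc1a3, Aqp4, Gja1, Ntsr2, Fgfr3 and Aldh1l1 with a UMI, no UMI of the myelin gene Mog or of the precursor gene Pdgfra, and under 5 UMIs of the spiny neuron gene Pde10a. The rule took 1163 of 37456 kept nuclei: 130, 56 and 425 for female pools 1 to 3, against 307, 111 and 134 for male pools 1 to 3.

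Astrocytes are the glia that clear glutamate and GABA from the extracellular space, buffer potassium and water, pass fuel and glutamine to neurons and contact both synapses and blood vessels. Those of grey matter are rich in the glutamate transporters encoded by Slc1a2 and Slc1a3, and hold little Gfap, the intermediate filament gene used as a classical astrocyte label. Gfap is higher in astrocytes along fibre tracts, at the brain surface and in injury, which is why nuclei with 2 or more Gfap UMIs were set beside those with 0.

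The pools were unequal in size and in what their members held besides astrocyte RNA. Pools had 2873 to 16504 kept nuclei with median depths of 3131 to 5049 UMIs, and the members' median was 2993 UMIs against 4442 in the remaining nuclei. The wording of the labels divides the pools into a set A (female pool 3 and male pool 1) and a set B (the other 4). Set A holds the pools whose own labels give strain and age. The set A pools had 1.55% and 2.28% of barcodes over the mitochondrial limit against 13.1% to 40.7% in set B. No member barcode occurred in more than 1 pool, and pairs of pools shared 0 to 51 kept barcodes. As the replicates are pools, p-values below measure the spread between pools and not between animals.

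Some members also held neuronal RNA, most of them in set A. At least 5 UMIs of Syt1, the calcium sensor of synaptic vesicles, were present in 191 of the 1163 members (16.4%), with 7, 6 and 122 nuclei in female pools 1 to 3 (5.38%, 10.7% and 28.7%) and 53, 1 and 2 in male pools 1 to 3 (17.3%, 0.901% and 1.49%). Their median depth was 6824 UMIs against 2733 in members with fewer, and 69 of the 77 members marked as doublets by their Scrublet score were among them. The summed level of 16 neuron markers was 1405, 2758 and 3772 CPM (counts of UMIs scaled to a common total for each class) for female pools 1 to 3, against 2469, 1017 and 1290 CPM for male pools 1 to 3. A further 4 members, all in male pool 1, held 70 to 319 UMIs of 9 ependymal (ciliated) markers, where no other member had more than 9. Markers of oligodendrocytes summed to 338 to 675 CPM over the pools, those of precursors to 39.0 to 249, of microglia to 69.4 to 224 and of endothelial and mural cells to 238 to 302. Members with under 5 Syt1 UMIs and under 10 ependymal UMIs, here called the low members, numbered 968 (123, 50 and 303 among female pools, against 250, 110 and 132 among male pools). This limit was chosen after seeing the data. The gene tests between the sexes and between Gfap classes are given with and without the nuclei it leaves out. Levels and list counts by class are those of all members unless low members are named.

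**Figure D1:**
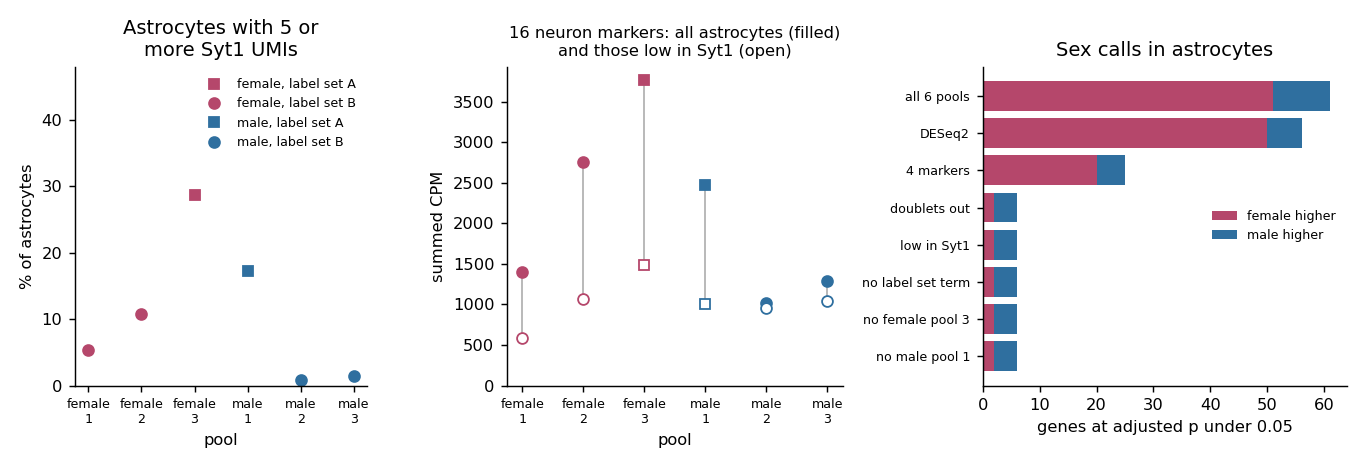
The left panel gives the percent of astrocyte nuclei with 5 or more Syt1 UMIs in each pool, the middle panel the summed CPM of 16 neuron markers for all members (filled) and low members (open), and the right panel a bar for the number of genes at adjusted p under 0.05 between the sexes under each setting. Female pool 3 (28.7%) and male pool 1 (17.3%) hold the highest shares, and the count of 61 genes is 6 in the low members (bar labelled low in Syt1). Syt1 is among the 16 markers, so part of their fall in low members is set by the limit.

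The members carried the RNA of astrocytes in every pool, also for genes that the rule did not ask for. The rule selected on the same nuclei, so these levels are a description with no test. Slc1a2, the main glutamate transporter of forebrain astrocytes, averaged 1301 ± 401 CPM (SD, n = 6 pools) in members, against 30.8 in spiny neurons (Pde10a at 5 or more UMIs), 62.8 in oligodendrocytes (Mog at 2 or more) and 79.6 in precursors (Pdgfra at 2 or more). It had a UMI in 86.8% of members (95% Wilson interval 84.8% to 88.7%) and in 12.7% of spiny neurons, although the median depth of spiny neurons was 6609 UMIs. Among 25 astrocyte genes outside the rule with at least 20 CPM in a class, 24 were above all 3 other classes in all 6 pools, where 13.8% of all 8912 such features were. The exception was Fgfr2, a fibroblast growth factor receptor gene also used by oligodendrocytes, at 276 CPM in members and 293 in oligodendrocytes. None of 13 neuron markers stood above all 3 classes and 9 stood below them in every pool (13.1% of all features did). The 13 include Pde10a, which the rule limits in members and which defines the spiny neuron class. In the low members the astrocyte genes outside the rule gave 25 of 26.

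The genes that set the members apart most from the remaining nuclei, next to the rule's own markers, included transporters, enzymes and matrix genes. Of the 20 genes with the highest ratio, 5 were rule markers, and Slc1a2 was also among them. Etnppl, which breaks down phosphoethanolamine, stood at 279 ± 63.3 CPM in members and at 5.40 to 10.8 in the 3 other classes. Aqp9, a channel for water and glycerol, stood at 205 ± 49.9 CPM against 3.27 to 8.08, and Itih3, a hyaluronan-binding matrix gene, at 2609 ± 1473 against 36.3 to 87.5. Others were Slc25a18 (mitochondrial glutamate carrier, 286 CPM), Slc7a11 (cystine and glutamate exchange, 214), Grin2c (an NMDA receptor subunit, 410), Heyl (a Notch effector, 147), Lgi4 (388), Col5a2 (226), Arhgef26 (502), Gramd2b (627), Pdzrn3 (735) and the unnamed feature AABR07058658.1. Pdgfrb, best known as a pericyte receptor, was also among them at 169 ± 48.1 CPM against 3.06 to 7.61 CPM. The 9 endothelial and mural markers, Pdgfrb among them, summed to 238 to 302 CPM in members and to 97.1 to 164 CPM in the remaining nuclei. Of the others on that list, Ebf1 was 7.95 to 141 CPM in members over the pools, and Rgs5, Vtn and Abcc9 averaged 5.69, 3.40 and 1.95 CPM.

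**Figure D2:**
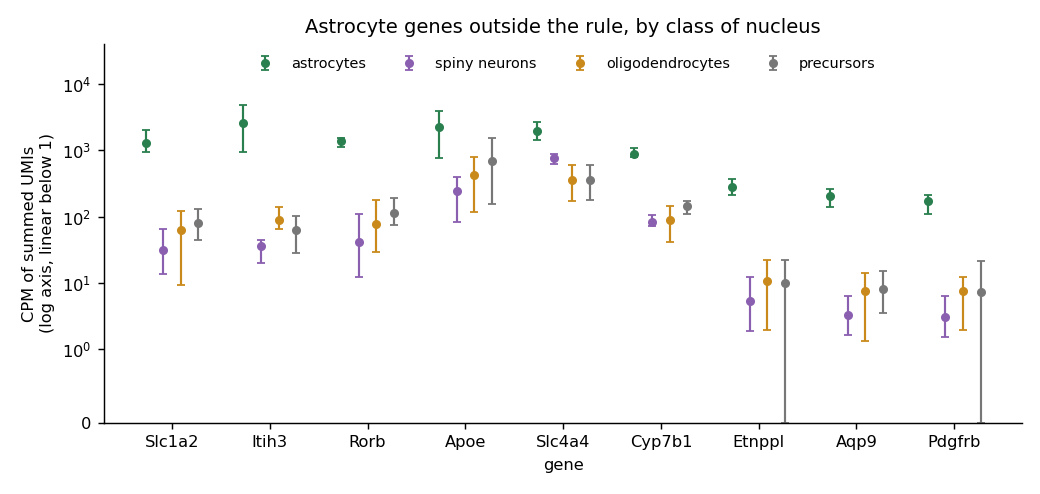
Mean CPM of 9 genes in astrocytes, spiny neurons, oligodendrocytes and precursors, with bars from the lowest to the highest of the 6 pools, on a symmetric log axis that includes 0. Slc1a2, Itih3, Etnppl and Pdgfrb lie above the 3 other classes in every pool, with Slc1a2 at 1301 CPM in astrocytes and at most 79.6 elsewhere.

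Nuclei just outside the rule held less of the same genes. Members with exactly 3, 4, 5 and 6 markers numbered 755, 323, 80 and 5, and a further 1371 nuclei had exactly 2 markers and met the exclusions. Slc1a2 stood at 1234 CPM in nuclei with exactly 3 markers and at 858 in those with exactly 2, and the summed level of 27 astrocyte genes outside the rule had a median over pools of 9683 CPM and 6218 CPM. The limit thus left out nuclei that share much of this RNA, and their median depth was 2316 UMIs against 2673.

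Genes for transmitter uptake were high in members, with 13 of 15 above the 3 other classes in all 6 pools. The 13 include Slc1a3, a gene of the rule, whose place was set by the choice of nuclei. Slc6a11, the GABA transporter GAT-3, stood at 435 ± 145 CPM against 23.0 to 31.8. Glul, which makes glutamine from glutamate, had 153 ± 36.1 CPM in members and 54.9 in oligodendrocytes, and Glud1, which oxidises glutamate, had 571 ± 93.4 CPM against 74.1 to 105. Slc1a2 itself was 925, 963 and 1165 CPM for female pools 1 to 3, against 1432, 2016 and 1303 CPM for male pools 1 to 3. The 3 male pools were the higher ones for Slc1a2 and the sexes did not overlap, which is taken up with the sex comparison.

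Genes for ion and water handling were often high in members, while those below the other classes were near the share of all features. Of 18 genes, 10 were above the other classes in every pool and 2 were below them, where 13.8% and 13.1% of all 8912 features of at least 20 CPM were. The 10 include Aqp4, a gene of the rule. Kcnj10, the potassium channel Kir4.1, stood at 114 ± 25.9 CPM against 3.09 to 40.7, and Slc4a4, a sodium bicarbonate cotransporter, at 1924 ± 429 against 356 to 754. The channel gene Kcnk2 stood at 45.3 ± 13.7 CPM in members and 462 in spiny neurons. The gap junction gene Gjb6 (connexin 30) was 26.2 ± 15.5 CPM in members and 0.967 in spiny neurons.

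Of 29 receptor genes, 13 were above and 3 below the other classes in all pools, where 13.8% and 13.1% of all features were. The 13 include Ntsr2, a gene of the rule. Gabbr1, a GABA-B receptor subunit, had 609 ± 88.0 CPM in members against 226 to 273, Gabrg1, a GABA-A receptor subunit, 439 ± 112 against 58.1 to 166, and the noradrenaline receptor gene Adra1a 206 ± 54.4 against 37.0 to 73.8. For the 2 metabotropic glutamate receptors linked to astrocytes the classes differed in order. Grm3 had 2123 ± 396 CPM in members, 2565 in oligodendrocytes and 903 in spiny neurons, while Grm5 had 530 ± 249 in members and 3059 in spiny neurons. The cannabinoid receptor gene Cnr1 averaged 65.2 ± 15.7 CPM in members against 18.3 to 27.3. Dopamine receptor RNA was low: Drd1 averaged 2.42 CPM in members and 15.1 in spiny neurons, and Drd2 12.8 and 255. As Drd1 was low in spiny neurons too, its level in members says little.

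Lipid and fuel genes were above the other classes in 15 of 26 and 12 of 16 cases. Among fuel genes, Pygb and Pygm, which break down glycogen, stood at 210 ± 46.9 CPM against 25.6 to 46.8 and at 55.2 ± 16.3 against 1.87 to 3.14, and Cpt1a, which admits fatty acids to mitochondria, at 110 ± 24.1 against 4.25 to 18.3. In the lipid list, Abca1, a cholesterol exporter, stood at 387 ± 86.6 CPM against 36.6 to 159. Apoe, the lipid carrier that astrocytes secrete, was 2053, 3324 and 768 CPM for female pools 1 to 3, against 1231, 2233 and 3928 CPM for male pools 1 to 3. The 2 set A pools were thus the lowest for Apoe. They were the lowest in other classes too. An Apoe UMI was present in 35.5% and 52.0% of spiny neurons of female pool 3 and male pool 1, against 76.0% to 78.7% in set B, and in 45.9% and 54.5% of oligodendrocytes against 70.0% to 82.6%. The order is therefore not particular to members, and the part of free RNA in these levels was not tested.

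Among members, the same 2 pools were the lowest for Itih3, while other classes did not share this order as they did for Apoe. Itih3 was 3774, 2218 and 941 CPM for female pools 1 to 3, against 1242, 2707 and 4771 CPM for male pools 1 to 3. An Itih3 UMI was present in 13.6% and 16.1% of spiny neurons of female pool 3 and male pool 1, against 7.1% to 10.0% in set B. In oligodendrocytes it was 24.2% and 20.8% against 7.6% to 11.6%. These shares are not scaled for depth. In the low members female pool 3 and male pool 1 still had the lowest levels, at 1417 and 1574 CPM for Itih3 and 950 and 1363 CPM for Apoe. The level of Rorb, a nuclear receptor gene, did not follow this order once the low members alone were counted, at 1473 to 1724 CPM over the 6 pools. Members of the set A pools also had the lowest median mitochondrial share, 0.207% and 0.255% against 1.31% to 3.30% in set B, and the part of this in the levels was not tested. Over the whole list of 27 astrocyte genes outside the rule, the summed level ran from 7313 (female pool 3) to 11118 CPM (male pool 2) in all members and from 10568 to 12155 CPM in the low members.

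Regulators of the glial lineage were high in members, with 23 of 31 above the 3 other classes in all pools and none below. Nfia, a nuclear factor that starts astrocyte development, stood at 1947 ± 319 CPM against 133 to 598, and Sox9, its partner, at 63.7 ± 22.5 against 2.31 to 5.03. Gli2 and Gli3, effectors of Sonic hedgehog, stood at 173 ± 36.5 CPM against 4.57 to 12.8 and at 687 ± 89.0 against 124 to 214, and Notch1 at 149 ± 28.4 against 3.83 to 69.3. Meis2, a striatal factor, was lower in members (705 ± 174) than in spiny neurons (1779).

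Genes for what astrocytes release and engulf were above the other classes in 13 of 30 secreted and 9 of 17 matrix genes, with 5 and 2 below. Of all features 13.8% were above and 13.1% below, so the counts below were near that share. Mertk and Megf10, receptors for engulfing synaptic debris, stood at 485 ± 122 CPM against 15.2 to 94.7 and at 198 ± 58.9 against 8.52 to 126. Sparcl1 (hevin), which promotes synapse formation, stood at 438 ± 125 CPM against at most 52.3, and the proteoglycan gene Bcan at 373 ± 68.3 against 16.4 to 76.1. Ptprz1 was 1455 ± 166 CPM in members and 2058 in precursors. Of the matrix genes, Lama2 varied most between pools, from 65.0 to 413 CPM.

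Clock genes were above the other classes in 11 of 15 cases, hormone genes in 4 of 11 and glucocorticoid response genes in 6 of 13. Among low members these counts were 9, 4 and 7. Per3 stood at 520 ± 140 CPM against 196 to 235, Nr1d1 (Rev-erb alpha) at 77.8 ± 21.3 against 12.8 to 16.4 and Npas2 at 490 ± 82.5 against 180 to 368, while Clock was the 1 gene below the other classes at 81.7 ± 31.1 against 124 to 141. Slco1c1, the thyroxine transporter, stood at 217 ± 57.6 CPM against 7.19 to 12.9. Cyp7b1, which hydroxylates oxysterols and steroids, stood at 872 ± 99.7 CPM against 84.0 to 144. Nr3c1, the glucocorticoid receptor, had 104 ± 15.9 CPM against 42.6 to 59.9. The early response gene Fos averaged 6.62 CPM in members and 7.81 in spiny neurons.

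Astrocytes made up a small share of the kept nuclei, and the sexes overlapped. The share was 4.10%, 1.95% and 2.58% for female pools 1 to 3, against 3.49%, 3.58% and 4.44% for male pools 1 to 3. The widest 95% Wilson interval, in male pool 3, ran from 3.76% to 5.24%, and these intervals cover counting error only. Means were 2.88% ± 1.11 for females and 3.84% ± 0.527 for males (each ± the SD over 3 pools). A 2-sided exact permutation test over pools gave p = 0.3, where 3 against 3 pools cannot go below 0.1. Females minus males came to -0.915 points within set A and -0.986 within set B, where it turned to 0.0916 with female pool 2 left out. After each nucleus was thinned to 1000 UMIs, which leaves fewer nuclei with 3 markers, the means were 0.862% and 1.18%.

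**Figure D3:**
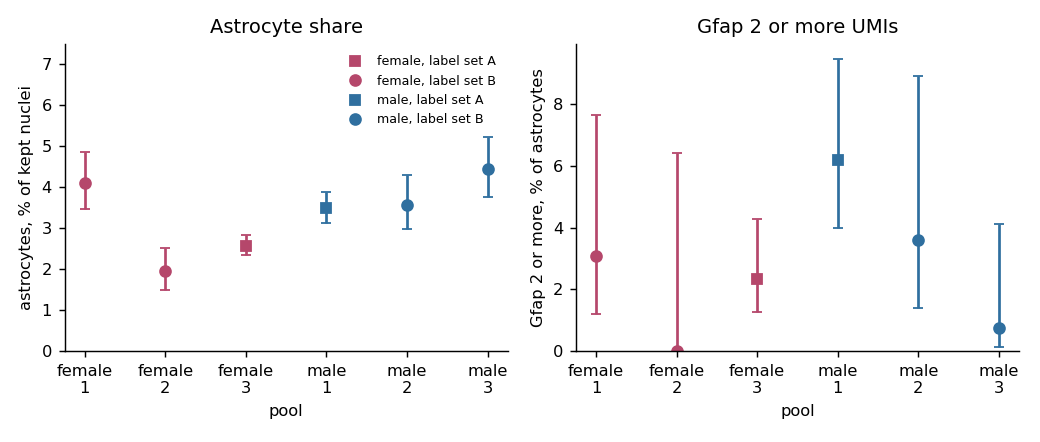
Astrocytes as a percent of kept nuclei (left) and astrocytes with 2 or more Gfap UMIs as a percent of astrocytes (right) in each pool, with 95% Wilson intervals as bars. The female pools (1.95% to 4.10%) and the male pools (3.49% to 4.44%) overlap on the left, and female pool 2 has 0 of 56 nuclei on the right.

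Between females and males, 6 features with nearly no RNA in 1 sex separated the pools of astrocytes. A further 55 genes passed the test among all members, and none of these passed once members marked as doublets were removed. UMIs were summed over members in each pool and compared with edgeR's quasi-likelihood test, with label set as a term and Benjamini-Hochberg adjustment over 7383 genes. At adjusted p under 0.05, 61 genes passed (0.826%), of which 51 (0.691%) were higher in females and 10 (0.135%) in males. With members limited to the 968 low ones, 6 of 6790 genes passed (0.0884%), and with nuclei marked as doublets removed 6 of 7010 did (0.0856%). The count was also 6 when either set A pool or the label set term was left out, while it was 22 without male pool 3 and 121 without female pool 2. DESeq2 called 56.

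The sexes were told apart by Y-linked genes in every pool. Kdm5d, a histone demethylase gene on the Y chromosome, was 2.04, 0 and 1.80 CPM for female pools 1 to 3, against 106, 146 and 79.5 CPM for male pools 1 to 3 (log2 fold change of females over males -5.82, SE 0.46, adjusted p = 2.06e-06). Eif2s3y, a translation initiation factor gene, was 0, 6.50 and 0.599 CPM among female pools, against 73.3, 98.4 and 90.1 CPM among male pools (-6.24, SE 0.53, adjusted p = 4.1e-06). A feature named Ddx3 was at most 0.599 CPM in females and 67.3 to 77.5 in males, and AC241873.1 was 2.99 to 6.50 against 191 to 253. For these 4 features all 6 pools matched their labelled sex. In the other direction, AABR07039356.2 was 395, 585 and 421 CPM among female pools, against 2.69, 0 and 2.65 among male pools (log2 fold change 7.52, SE 0.37, adjusted p = 7.62e-09). LOC680227 was 4970, 1743 and 323 CPM among female pools, against 2.69, 0 and 0 among male pools. The female pools thus differed widely among themselves for this feature.

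The X-linked genes that escape inactivation lay higher in females without passing. All 5 tested had a log2 fold change above 0, with a median of 0.48, where 3636 of all 7383 genes tested were above 0. Eif2s3 had 1.10 (adjusted p = 0.114, edgeR's quasi-likelihood test), and Kdm6a, a histone demethylase gene, 0.52 (adjusted p = 0.303). Both were without overlap between the sexes, which held for 633 of the 7383 genes (8.57%).

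The 49 other genes higher in females were all more abundant in spiny neurons than in low members. Each of the 49 was also higher in members with 5 or more Syt1 UMIs than in low members, with a median ratio of 9.08, and 48 had their highest level in female pool 3. For Syt1, itself among the 49, that order was set by the split of members. Ralyl, an RNA-binding protein gene, had the smallest p at 177, 182 and 276 CPM for female pools 1 to 3, against 119, 44.7 and 55.6 CPM for male pools 1 to 3 (log2 fold change 1.49, SE 0.21, adjusted p = 0.00266). Its level was 649 CPM in spiny neurons, 400 in members with 5 or more Syt1 UMIs and 55.6 in low members. Syt1 was 648, 1405 and 2193 CPM among female pools, against 1251, 200 and 278 CPM among male pools (1.55, SE 0.30, adjusted p = 0.0243). Male pool 1 was above female pool 1 here, so the sexes overlapped for Syt1, as they did for 39 of the 49. The median log2 fold change of the 49 was 1.33 in all members and 0.50 in the 38 that could be tested in low members. In all 49 the females were higher within both label sets (medians 1.09 in A and 1.55 in B). The 49 were picked on these same pools with label set as a term, which favours such genes, so this is a description only.

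By what they encode, these 49 included genes of vesicle release (Syt1, Rims1, Cadps, Ppfia2, Apba1), of ion channels and exchangers (Cacna2d1, Cacna1b, Kcnj3, Asic2, Ryr2, Slc24a2), of synaptic receptors, scaffolds and adhesion (Il1rapl1, Lrrtm4, Lrfn5, Dlg2, Dlgap1, Anks1b, Grm7, Cntn5, Cntnap5b, Opcml, Cdh8, Unc5d, Plxna4) and of RNA binding (Ralyl, Elavl2, Khdrbs2, Rbfox1). Others included Camk4, Ksr2, Ank3, Dync1i1, Cdk14, Mtus2, Cobl, Ak5, Ccdc85a, Xkr4, Pex5l, Nell1, Oxr1, Cers6, Chsy3, Spock3, Nkain2 and 3 features without a gene name, AABR07024786.1, AABR07033184.1 and AABR07033882.1. Log2 fold changes ran from 0.78 in Dlgap1 to 2.32 in Ccdc85a. None of the 38 tested in low members passed there.

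Of the 6 other genes higher in males, Dbp, an output gene of the circadian clock, had the smallest p. It was 87.6, 84.6 and 38.9 CPM for female pools 1 to 3, against 96.2, 218 and 167 CPM for male pools 1 to 3, with no overlap (log2 fold change -1.23, SE 0.21, adjusted p = 0.0105). In low members the log2 fold change of Dbp was -1.06 with an adjusted p of 0.15, and it passed in 7 of 15 alternatives. Sat1, which breaks down polyamines, was 1232, 917 and 511 CPM in females and 855, 2185 and 2683 in males, with overlap (-1.05, adjusted p = 0.0314). Plekho2 had -0.88 (adjusted p = 0.0486) and Bcas1, a gene of the oligodendrocyte lineage, -1.51 (adjusted p = 0.04). Spag6l and Spef2, genes of the ciliary axoneme, had -1.87 and -1.67 (adjusted p = 0.0407 and 0.0409), beside the 4 members rich in ciliary RNA in male pool 1. Male pools 2 and 3, which hold no such nucleus, were above all female pools for both, at 38.8 and 26.5 CPM for Spag6l and 32.8 and 66.2 for Spef2. In the low members Spef2 had an adjusted p of 0.96 and Spag6l was not tested.

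**Figure D4:**
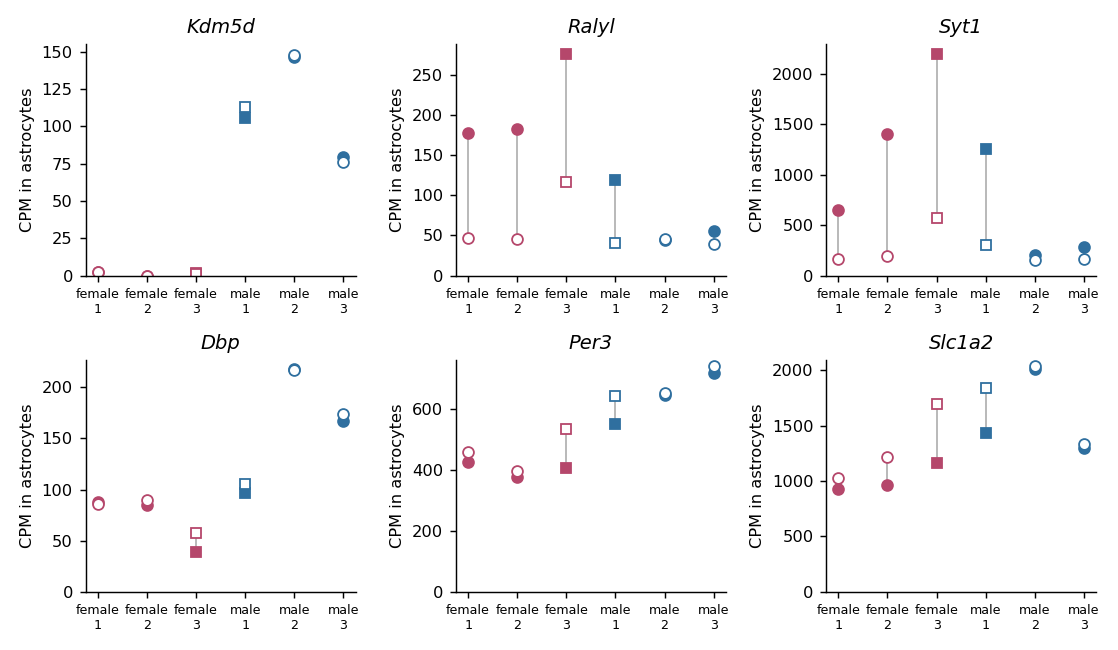
CPM of 6 genes in each pool for all members (filled) and low members (open), with females in pink, males in blue, set A as squares and set B as circles. Kdm5d separates the sexes, Ralyl and Syt1 drop in female pool 3 when only low members are counted, and Dbp, Per3 and Slc1a2 lie higher in the male pools among all members. The drop of Syt1 is set by the limit on Syt1 that defines the low members.

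Few genes of the astrocyte lists passed this test between the sexes. From the Gfap-rich and reactive list, 1 of 18 passed as higher in females among all members, where 0.691% of all genes did. Among low members 0 of 16 passed. None of 24 astrocyte genes outside the rule passed, 3 with a positive and 21 with a negative log2 fold change among all members, and 10 and 14 among low members. Over all 7383 genes tested 3636 were positive and 3747 negative, and over the 6790 tested in low members 3401 and 3389. Slc1a2, with the values given above, gave -0.65 on the log2 scale (SE 0.21, adjusted p = 0.213), and -0.44 in low members. Per3 was 426, 377 and 405 CPM among female pools, against 550, 644 and 718 among male pools without overlap (-0.66, SE 0.18, adjusted p = 0.127). Of 15 clock genes tested, Dbp alone passed, 4 were positive and 11 negative, and of the hormone and glucocorticoid lists 0 of 10 and 0 of 9 passed. The oestrogen receptor gene Esr1 had -0.57 (adjusted p = 0.468), and the glucocorticoid targets Sgk1 and Zbtb16 had 1.06 and 0.78 (adjusted p = 0.134 and 0.289). The next 12 named genes by p, with adjusted p from 0.0503 to 0.0605, were Tenm2, Syndig1, Mapk10, Slc8a1, Atp8a2, Zfp385b, Tafa2, Kcnc2 and Grin1 in the direction of females and Zfp449, Lilrb3a and Tubb2a in that of males.

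A sex difference of astrocytes was not shown to differ from that of the remaining nuclei. The interaction of class and sex, with pool as a block, passed in 0 of 15250 genes (0%) by edgeR's quasi-likelihood test and in 0 by DESeq2, while 504 genes had an unadjusted p under 0.05. Among the 3 genes of smallest p were the channel gene Kcng3 and Ccdc85a (log2 difference of females minus males 1.91), both with an adjusted p of 1.0. Kcng3 had no UMI in the male members. With male pool 1 left out the interaction count was 128, and with female pool 3 left out it was 2. With any 1 of the other 4 pools left out it was 0 by edgeR's test, with 373 to 809 genes at an unadjusted p under 0.05.

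Gfap was found in few members and at a low level. It had 0 UMIs in 1034 nuclei, 1 in 91 and 2 or more in 38. A UMI was present in 11.1% of members (95% Wilson interval 9.41% to 13.0%) and in 1.56% of the deeper spiny neurons. The level was 34.6, 26.0 and 40.1 CPM for female pools 1 to 3, against 69.3, 59.6 and 42.4 CPM for male pools 1 to 3, with no overlap of the sexes (log2 fold change -0.73, SE 0.27, adjusted p = 0.323). In low members female pool 3 stood at 65.4 CPM, above male pools 2 and 3, so there the sexes overlapped. Vim, another filament gene of reactive astrocytes, averaged 5.79 CPM and ranged from 0 to 22.2.

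Nuclei with 2 or more Gfap UMIs came from 5 pools. They numbered 4, 0 and 10 for female pools 1 to 3, against 19, 4 and 1 for male pools 1 to 3, which is 3.08%, 0% and 2.35% and 6.19%, 3.60% and 0.746% of members. The 0 of 56 nuclei in female pool 2 allows a share of up to 5.36% by the limit of 3 counts, and its 95% Wilson interval, drawn in the plot of shares, reaches 6.42%. Means over the 3 pools were 1.81% ± 1.61 (SD) for females and 3.51% ± 2.72 for males, and the 2-sided exact permutation test gave p = 0.4. Females minus males came to -3.84 points within set A and -0.636 within set B. The set B value turned to 0.902 without female pool 2, to 0.792 without male pool 2 and to 1.92 with at least 4 markers. After thinning to 1000 UMIs the means were 0% and 2.17% (exact permutation p = 0.4), from 2 of 71 nuclei in male pool 1, 1 of 27 in male pool 2 and 0 in the other 4 pools.

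Set beside nuclei with 0 Gfap UMIs, the 38 nuclei differed in 2 genes, of which Tnc was higher and Opcml was lower. Sums of both classes were compared within the 5 pools that hold both, with pool as a block. Of 4095 genes, 2 passed at adjusted p under 0.05 (0.0488%) by edgeR's quasi-likelihood test, 167 had an unadjusted p under 0.05, and DESeq2 called 0. Median depth was 3730 UMIs in the 38 nuclei and 2924.5 in the 1034, and the 38 held 149748 UMIs in all. The rule for naming asks for 1 direction in all 6 pools. No gene could meet it here, as only 5 pools were compared, and both genes are named because the count is small.

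Tnc encodes tenascin-C, a matrix glycoprotein of radial glia and reactive astrocytes. It was 29.2, 46.5, 59.7, 102 and 87.5 CPM in Gfap 0 nuclei of female pools 1 and 3 and male pools 1 to 3, and 58.3, 354, 319, 67.4 and 0 CPM in Gfap 2 or more nuclei of the same pools. The log2 fold change was 1.89 (SE 0.40, adjusted p = 0.00413), from 40 UMIs in the 38 nuclei. It was higher in 3 of 5 pools, lower in male pool 2 and at 0 in the single nucleus of male pool 3. In female pool 3, where Tnc was highest, the Gfap 2 or more nuclei also held more RNA of other cells than the Gfap 0 nuclei, at 1881 against 652 CPM for oligodendrocyte markers and 1418 against 271 CPM for endothelial and mural markers. In male pool 1 these sums were 599 against 645 CPM and 166 against 294 CPM, and the part of other cells in the difference was not tested. Opcml, a neuronal cell adhesion gene that was also among the female-higher genes above, was 249, 895, 526, 20.4 and 56.5 CPM in Gfap 0 nuclei and 0, 218, 12.8, 0 and 0 CPM in the others. Its log2 fold change was -3.21 (SE 0.60, adjusted p = 0.000386), from 9 UMIs, and it was lower in 5 of 5 pools. With 1 or more Gfap UMIs as the limit the log2 fold change of Opcml was -0.39 (adjusted p = 0.999), higher in 3 of 6 pools, and -0.05 there with doublets removed. The level of Opcml was 768 CPM in members with 5 or more Syt1 UMIs and 96.9 in low members.

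**Figure D5:**
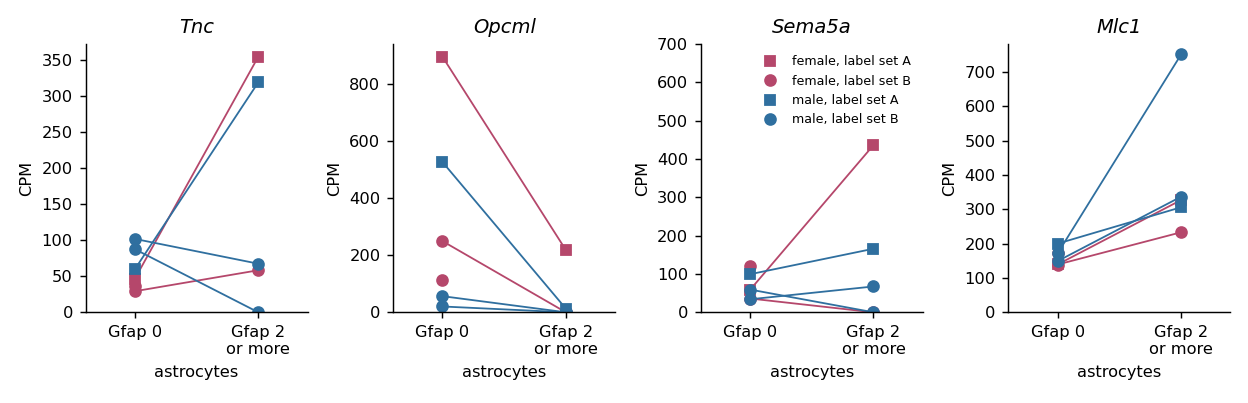
CPM of Tnc, Opcml, Sema5a and Mlc1 in nuclei with 0 and with 2 or more Gfap UMIs, with a line for each of the 5 pools that hold both classes, squares for set A, circles for set B and an unjoined point for female pool 2. Tnc is higher in 3 of 5 pools with 2 or more Gfap UMIs, Opcml lower in 5 of 5, and Mlc1 higher in 5 of 5 without passing the test.

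Both calls turned on single pools and on the limit. By edgeR's quasi-likelihood test the count was 0 with female pool 3 left out (133 genes at an unadjusted p under 0.05) and 0 with male pool 1 left out (122). It was 4 when female pool 1 and 3 when male pool 3 was left out. With doublets removed Tnc alone passed. Among low members Tnc did not pass (adjusted p = 0.48), Opcml was not tested, and the sodium and calcium exchanger gene Slc8a1 passed as higher. With nuclei of 1 or more Gfap UMIs as the high class, which adds female pool 2 and brings it to 129 nuclei, 9 of 4578 genes passed (0.197%).

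In that wider class Tnc was again higher, by 1.20 on the log2 scale (SE 0.26, adjusted p = 0.0142, edgeR's quasi-likelihood test), and Sema5a, a guidance gene, was higher by 1.34 (SE 0.23, adjusted p = 0.000346). Sema5a was 35.9, 122 and 58.6 CPM in Gfap 0 nuclei of female pools 1 to 3 and 99.3, 33.9 and 59.3 CPM in those of male pools 1 to 3. It was 21.9, 424 and 198 CPM and 206, 123 and 215 CPM in nuclei with 1 or more Gfap UMIs of the same pools, so higher in 5 of 6. Ano3, a scramblase gene, was higher by 0.89 (adjusted p = 0.0424). Il1rapl2, a synaptic adhesion gene, was lower by 2.04 on the log2 scale in 6 of 6 pools, and Thsd7a, Sphkap, Grm8, Cntnap5b and Thsd7b were also lower. All 6 were higher in members with 5 or more Syt1 UMIs than in low members, as for Grm8 at 674 against 86.6 CPM. So were Sema5a (135 against 57.1 CPM) and Ano3 (209 against 81.3 CPM), while Tnc was lower (25.7 against 77.1 CPM). Sema5a averaged 284 CPM in precursors and 81.5 in members, and Ano3 766 CPM in spiny neurons and 132 in members. In low members Grm8 turned from -1.14 to 0.29 at this limit and from -1.79 to 0.39 at 2 or more Gfap UMIs, and Thsd7b turned from -1.06 to 0.68 at 2 or more. Il1rapl2 had -1.84 in all members and -0.24 in low members at 2 or more. Apart from Grm8, the genes tested in low members at 1 or more Gfap UMIs were Tnc and Sema5a (0.91 for both) and Ano3 (0.42). With the same limit in low members 0 genes passed by edgeR's test, with 107 at an unadjusted p under 0.05, and with doublets removed Sema5a and Il1rapl2 passed. DESeq2 was not run with this limit.

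The median log2 fold change over all 4095 genes at 2 or more Gfap UMIs was -0.17, with 1405 positive and 2690 negative. Of 12 genes tested from the Gfap-rich and reactive list, 9 were positive with a median of 0.38, and Tnc was the only one to pass. In the ion and water list, 8 of 13 were positive with a median of 0.15, and the rule gene Aqp4 is counted among the 8. Aqp4, the water channel of astrocyte endfeet, is a gene of the rule, so its levels are given with no test. It was 308, 239, 261, 326 and 443 CPM in Gfap 0 nuclei of the 5 pools and 525, 681, 880, 472 and 0 CPM in Gfap 2 or more nuclei. Mlc1, its partner in the endfoot membrane, had 0.77 (adjusted p = 0.999) and was higher in 5 of 5 pools. The volume-regulated anion channel gene Lrrc8a had 1.09 (adjusted p = 0.995) and was higher in 5 of 5. Of 23 neuropil astrocyte genes 17 were negative with a median of -0.29, and of 13 clock genes 10 were negative with a median of -0.25, shares near that of all genes tested.

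The Gfap difference was not shown to depend on sex. The interaction of Gfap class and sex passed in 0 of 6377 genes (0%) by edgeR's quasi-likelihood test and in 0 by DESeq2, and 201 had an unadjusted p under 0.05. The smallest p-values were those of Bcas1 (log2 difference 4.60, adjusted p = 0.345), Ebf1 (4.64) and Slc9a7 (8.42). Ebf1, a gene of mural cells, stood at 1363 CPM in the 10 Gfap 2 or more nuclei of female pool 3, where the 9 endothelial and mural markers summed to 1418 CPM, and at 0 to 67.4 CPM in those of the other 4 pools.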

How the data were processed

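The deposited matrices give, for 32883 features and each barcode, raw UMI counts written by Cell Ranger 4.0.0 per the file headers. Per the submitters' processing notes the genome build was rn6. Which annotation was used is not stated there. Per the labels' protocols, each library used 50 mg of frozen tissue from 200 µm slices, the 10x Genomics 3' chemistry and 11 cycles of cDNA amplification. Kept nuclei held 230305192 UMIs, and members 4515297. The members, gene lists, comparison classes and tests were chosen with earlier results of these data known.

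Counts were summed per pool and class. Sums were tested with edgeR 4.0.16 (TMM, filterByExpr, glmQLFit, Benjamini-Hochberg, threshold 0.05) in R 4.3.3, with DESeq2 1.42.0 as an alternative, after tests on simulated data. Shares were compared with exact permutation tests in scipy 1.17.1. Doublets were scored with Scrublet in scanpy 1.11.5. Thresholds set by Scrublet itself took 0% to 34.2% of a pool, and therefore the highest scores were marked instead, 0.8% per 1000 nuclei. Thinning to 1000 UMIs left shallower nuclei out (98 to 633 per pool). Named genes were the calls between the sexes and the next 12 by p, up to 15 per direction for Gfap (calls with 1 sign in all 6 pools and at least 20 CPM), the 3 of smallest p for interactions, up to 4 per list by p, and the 20 leading genes. Some genes that these rules select are not reported here. Further list members are named as examples, chosen after their values were seen. Female pool 2 has no nucleus with 2 or more Gfap UMIs and did not enter that fit. Levels are not scaled by gene length, so they are compared between classes and not between genes. Alternatives were another tool, no filter, other marker, Gfap and UMI limits, doublets removed, other covariates and each pool left out.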

Additional observations from a re-analysis of the deposited data

How the results depend on the processing

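The count of 61 genes between the sexes was 258 with no filter on low counts and 25 with at least 4 markers. It was 6 with doublets removed, without the label set term, in low members and in low members without that term, the latter limit added after seeing the data. Leaving out 1 pool gave 6 to 121. Replicate numbers did not pair the pools, with correlations of deviations between same-numbered pools of -0.503, 0.125 and -0.408, and a fit with the replicate block and no label set term called 5. Among single genes, Dlg2 turned to -0.071 in low members, and Nkain2 to -0.28 there and to -0.0233 there without the label set term. The interaction with the remaining nuclei called 36 genes with no filter and 10 with at least 4 markers, and 0 to 128 with 1 pool left out. The Gfap count of 2 was 0 with DESeq2, 5 with no filter, 1 with at least 4 markers, 1 with doublets removed, 1 in low members, 9 at 1 or more Gfap UMIs, 0 at 3 or more (222 at an unadjusted p under 0.05), 1, a gene of the rule, against Gfap 0 nuclei matched for depth, and 0 to 4 with 1 pool left out. At 1 or more Gfap UMIs it was 2 with doublets removed and 0 in low members, both added after seeing the data. Ano3 turned from -0.02 to 0.89 at 1 or more Gfap UMIs, and in low members Grm8 turned to 0.39 and Thsd7b to 0.68, with Grm8 at 0.29 at 1 or more Gfap UMIs. The Gfap interaction with sex called 1 gene with doublets removed, 1 in low members and 1 at 1 or more Gfap UMIs, 3 at that limit with doublets removed and 1 at that limit in low members, and 0 with any 1 pool left out. Females minus males stayed negative over all pools in each alternative run for both shares, while within set B it turned as given above. With 3 pools or fewer a group no p under 0.05 can be reached, so the p-values of the shares say nothing of stability. In the cases above where fewer pools or nuclei entered, fewer counts stood behind the test, and otherwise the cause was not tested. The 38 Gfap nuclei with 149748 UMIs limit what that comparison can show.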
